A study of Mus musculus with 58 samples.

Results

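The immediate early genes of the mouse retina were followed over the light/dark cycle in control and diabetic mice. The group was chosen by name, as the 10 symbols Fos, Fosb, Junb, Egr1, Egr2, Nr4a1, Arc, Npas4, Ier2 and Dusp1 among the 52459 genes of the deposited count table. All 10 were in the table, and 9 of them were among the 19120 genes that passed the expression filter, a median above 4 normalized counts over the 58 libraries. Egr2 did not pass and is given by its counts. A normalized count here is a read count divided by the DESeq2 size factor of its library.

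Total RNA from retinas of male mice aged 4 months was depleted of ribosomal RNA and sequenced at 6 Zeitgeber times, ZT1, ZT5, ZT9, ZT13, ZT17 and ZT21, where ZT counts the hours after lights on in a cycle of 12 h light and 12 h dark. Diabetic mice were C57BL/6-Ins2Akita/J heterozygotes, whose mutant insulin misfolds and damages the beta cells, with blood glucose above 250 mg/dl. Control mice were wild-type male littermates, labelled C57/BL/6. All mice were perfused with cold saline before the eyes were taken. At ZT13, ZT17 and ZT21 every process was carried out in dim red light, for both genotypes. The 30 control libraries held 6 from ZT5, 4 from ZT21 and 5 from each other time, and the 28 diabetic ones held 4 from ZT13, 4 from ZT17 and 5 from each other time. The mutation changes the insulin 2 protein and is not read from its level, and Ins2 had between 0 and 6 reads per library, so no gene here checks the genotype labels. The samples are called biological replicates, but the labels do not tie them to animals, so the p-values measure the spread between these samples.

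Immediate early genes are transcribed within minutes of a stimulus, from proteins that are already present in the cell. Calcium entry, cyclic AMP and growth factors act through ERK, CaM and PKA kinases on the factors CREB and SRF, which sit on the promoters of these genes, and the transcripts then decay quickly. In the retina, light steps and synaptic activity are known to induce several of them in particular neurons and glia, so that a whole-retina sample gives a mixture of cell types.

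Read counts on genes ranged from 7773117 to 22147398 per library, with a median of 15406400. All markers listed for rods, cones, bipolar, amacrine and ganglion cells, Muller glia, astrocytes, microglia and endothelium passed the filter. The 8 markers of retinal pigment epithelium (RPE) also passed, with summed levels of 478 to 4681 normalized counts in control and 400 to 5146 in diabetic libraries. Lens markers summed to over 10000 in 3 control libraries, ZT1 replicate 6, ZT17 replicate 5 and ZT21 replicate 2, and to 910 or less in the others. No blood marker passed the filter. In bulk retina, fewer cells of a type and less RNA per cell cannot be told apart.

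Per kilobase of exon, Nr4a1 had the highest median level over the 58 libraries, at 199 normalized counts per kb, followed by Egr1 at 169, Fos at 162 and Ier2 at 160. Dusp1 and Junb both had 115 per kb. The remaining genes were far lower, at 12.6 per kb for Npas4, 8.30 for Fosb and 6.69 for Arc, and Egr2 stood at 0.264. The order among the upper 4 is narrow beside their spread over libraries, which for Egr1 ran from 148 to 6340 normalized counts before the division by length.

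Upstream sequence was taken from the RefSeq promoter table for GRCm38.p6, which had windows for 7 of the 10 genes. Within 250 bases before the start, the cAMP response element TGACGTCA, read on either strand, was found in 1 of the 7 genes, Dusp1, against 1.77% of the 27025 genes in the table. Its core TGACG, which is part of the full element, was in at least 1 window of 7 of 7 genes, against 19.8% of all genes. The CArG box bound by SRF was found in 1 of the 7, Egr2, against 1.62% of all genes. Such a match is a description of letters and not a measured site. The following stretches are shown because Npas4 was called over the day in both genotypes, Fos was called between genotypes over all times, Nr4a1 was called over the day in both genotypes, and Dusp1 held the full element. Capitals mark the element or its core on either strand, and all are written 5′ to 3′ on the strand of the gene.
Npas4, chr19:4990129-4990158, minus strand: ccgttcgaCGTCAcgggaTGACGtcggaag
Fos, chr12:85473640-85473889, plus strand: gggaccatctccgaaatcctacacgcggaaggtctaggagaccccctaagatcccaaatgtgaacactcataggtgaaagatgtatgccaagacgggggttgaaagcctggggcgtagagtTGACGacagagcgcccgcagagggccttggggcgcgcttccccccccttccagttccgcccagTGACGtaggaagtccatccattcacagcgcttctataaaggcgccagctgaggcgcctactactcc
Nr4a1, chr15:101266596-101266845, plus strand: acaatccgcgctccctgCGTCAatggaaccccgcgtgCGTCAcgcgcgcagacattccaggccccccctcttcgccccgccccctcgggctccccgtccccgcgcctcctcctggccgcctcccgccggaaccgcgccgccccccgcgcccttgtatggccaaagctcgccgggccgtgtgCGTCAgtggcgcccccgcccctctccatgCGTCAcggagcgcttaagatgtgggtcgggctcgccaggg
Dusp1, chr17:26508520-26508722, minus strand: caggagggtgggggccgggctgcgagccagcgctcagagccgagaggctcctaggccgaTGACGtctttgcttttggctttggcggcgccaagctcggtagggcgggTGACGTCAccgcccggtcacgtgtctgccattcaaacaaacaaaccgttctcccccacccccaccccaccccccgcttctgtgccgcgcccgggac
The Fos window ends at the first base before the annotated transcript, and its cores lay at -129 to -125 and -66 to -62 from the RefSeq start. The Dusp1 element lay at -143 to -136. The Npas4 window lies wholly in an annotated exon, so 30 bases around the cores at -179 to -175 and -169 to -165 are given. The Nr4a1 stretch lies inside the longer gene model but outside its annotated exons. For Dusp1, the bases nearest the start lie in an annotated exon and are left out.

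By genome position (GRCm38, Gencode M21), Fosb is at chr7:19302696-19310051, Ier2 at chr8:84661331-84662852, Junb at chr8:84974484-84978718, Egr2 at chr10:67535475-67542188 and Fos at chr12:85473890-85477273. Arc is at chr15:74669083-74672570, Nr4a1 at chr15:101254269-101274795, Dusp1 at chr17:26505590-26562128, Egr1 at chr18:34859823-34864984 and Npas4 at chr19:4984355-4990316. Junb overlaps Prdx2 on the other strand, and the Dusp1 model overlaps Ergic1 on the other strand and small genes on its own. The strand setting of the counting is not given in the sources used here, so reads of these overlaps cannot be told apart for Junb and Dusp1.

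**Figure D1:**
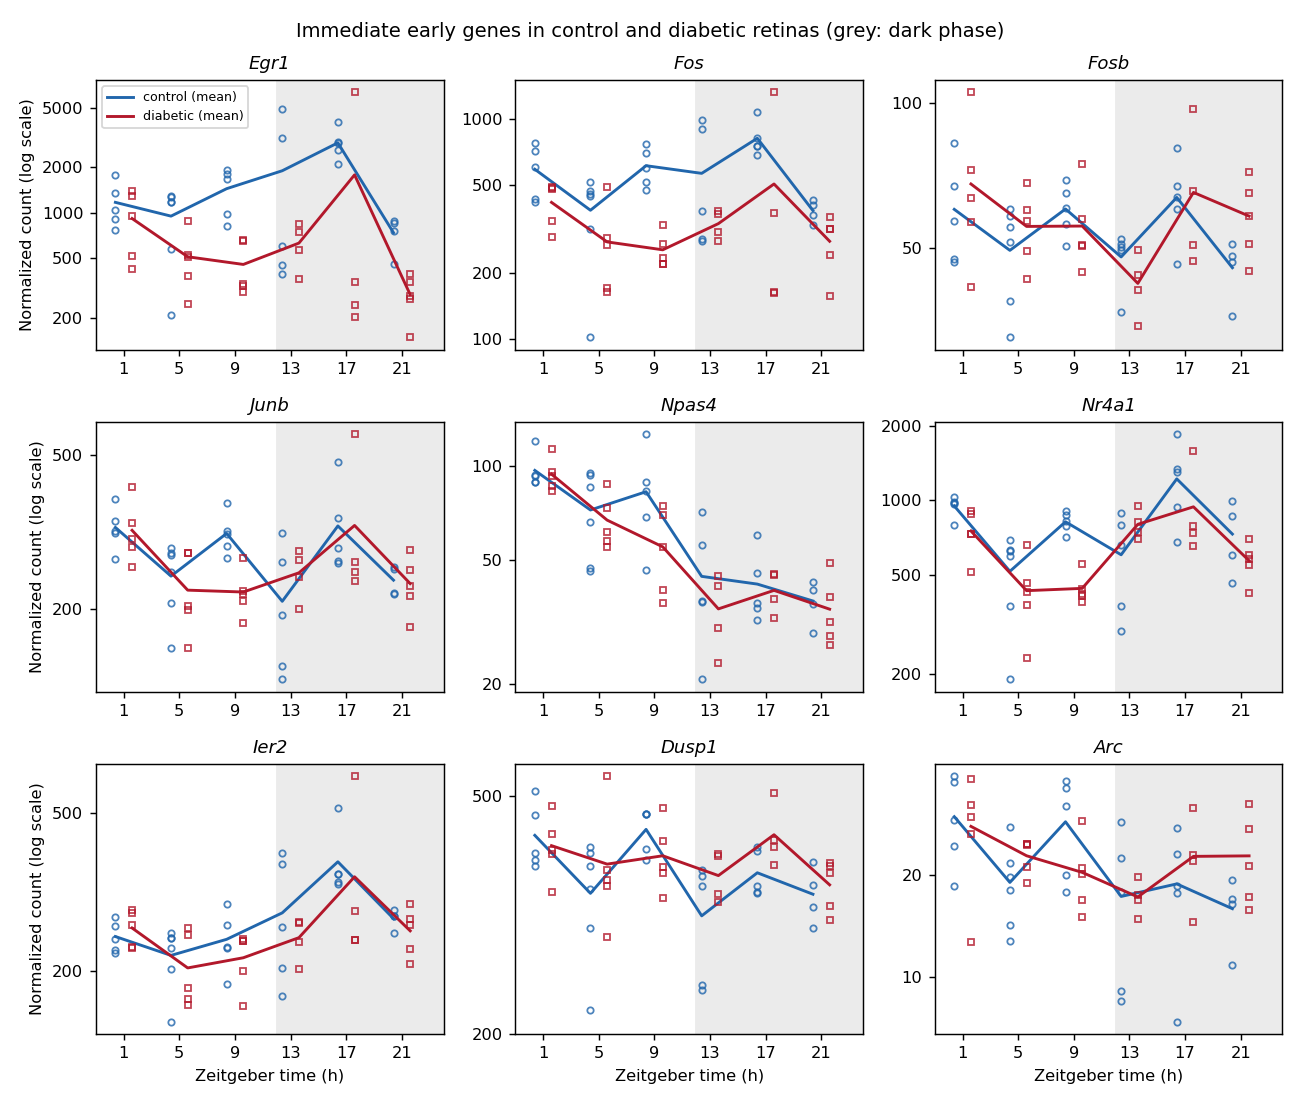
Normalized counts (log scale) of the 9 immediate early genes that passed the expression filter, against Zeitgeber time in hours; each point is a library, lines join group means, blue is control, red is diabetic and grey marks the dark phase. Npas4 was highest at ZT1 in both genotypes, and the diabetic ZT17 library at 6340 for Egr1 stands far above the other 3 of its group.

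Npas4 was highest by day, while Egr1, Fos, Ier2 and Nr4a1 had their highest control means at ZT17. With edgeR's quasi-likelihood test of any difference among the 6 times, 4 of the 9 genes passed an adjusted p of 0.05 in control retinas, where 9.06% of all genes did: Npas4 (adjusted p = 1.15e-05), Nr4a1 (0.00344), Ier2 (0.0190) and Dusp1 (0.0384). In diabetic retinas 3 passed, where 10.2% of all genes did: Npas4 (7.38e-06), Nr4a1 (0.00533) and Egr1 (0.0193). By the re-implemented empirical JTK_CYCLE test, which asks for a 24 h rhythm at an unadjusted permutation p under 0.05 and a minimal fold between libraries, 2 genes were rhythmic in control retinas, where 21.8% of all genes were, and 2 in diabetic retinas, where 23.9% were. These were Npas4 and Ier2 in control (permutation p = 0.000155 and 0.00476) and Npas4 and Nr4a1 in diabetic retinas (p = 8e-05 and 0.00114). Leaving out the diabetic ZT17 replicate 3, discussed with the genotypes, the test of any time difference passed in 7 genes in control retinas, and Egr1 no longer passed in diabetic ones (adjusted p = 0.0537). With the replicate block, the test passed in 2 genes in diabetic retinas, and Egr1 had an adjusted p of 0.112. Without diabetic ZT17 replicate 4 it passed in 5 genes in diabetic retinas. The shares of all genes in these refits are not given, so their counts of members are not set against a share. In control retinas Ier2 lost its call without control ZT17 replicate 3 (adjusted p = 0.174). Dusp1 lost its call, with adjusted p up to 0.0810, without any 1 of ZT1 replicates 1 and 2, ZT5 replicate 2, ZT9 replicates 1, 2 and 4, ZT13 replicates 1 and 2 and ZT21 replicate 3 of control.

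Npas4 encodes a bHLH-PAS transcription factor that neurons induce on calcium entry. Its control libraries read 88.9, 89.1, 93.1, 93.5 and 121 normalized counts at ZT1 and 29.0, 36.1, 39.9 and 42.5 at ZT21. The diabetic ones read 83.2, 86.3, 92.8, 96.0 and 113 at ZT1 and 26.5, 28.5, 31.6, 38.0 and 49.0 at ZT21. The libraries before and after lights on did not overlap in either genotype, and both genotypes had nearly the same means, 97.0 ± 13.3 (SD, n = 5) and 94.4 ± 11.8 (n = 5) at ZT1. Across lights on, ZT1 minus ZT21, Npas4 was the 1 member of 9 to pass in each genotype, and it rose by 1.37 ± 0.25 on the log2 scale (SE) in control (edgeR adjusted p = 0.000948) and by 1.46 ± 0.23 in diabetic retinas (adjusted p = 6.24e-05). Without diabetic ZT17 replicate 3, Egr1 also passed in diabetic retinas, at 1.70 (adjusted p = 0.0290), which made 2 members there. Of all genes, 0.262% were called higher across lights on in control and 1.39% in diabetic retinas. The difference between the genotypes in this step was 0.09 ± 0.34, and none of the 9 genes passed its test, where 0.0% of all genes did (446 genes and 0 members at an unadjusted p under 0.05, and 0 members with DESeq2). A fitted cosine put the Npas4 peak at ZT4.57 ± 0.91 h (SE) in control and ZT3.24 ± 0.67 h in diabetic retinas, with a relative amplitude of 40.4% ± 9.7 and 47.7% ± 9.4.

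RPE markers moved over the same times in the opposite direction. Of the 8, 5 were called lower across lights on in both genotypes, and the medians of their sum were 3265 at ZT21 and 1089 at ZT1 in control and 3336 and 1057 in diabetic retinas. The part of these cells in the step of Npas4 was not tested.

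Across lights off, ZT13 minus ZT9, no member passed with edgeR in either genotype, where 0.126% of all genes passed in control and 0.173% in diabetic retinas. At an unadjusted p under 0.05 there were 4 members in control and 2 in diabetic retinas, where 5.69% and 7.85% of all genes were, and DESeq2 called 1 in control and 0 in diabetic retinas. The 1 was Npas4, with means of 82.9 ± 29.6 (n = 5) at ZT9 and 44.3 ± 19.7 (n = 5) at ZT13 and a difference of -0.92 ± 0.24 (edgeR adjusted p = 0.115, DESeq2 adjusted p = 0.0448). Without control ZT13 replicate 3, which read 71.4 against 20.6 to 56.0 in the other 4, the edgeR difference was -1.12 with an adjusted p of 0.0489. Dusp1, a phosphatase that switches off MAP kinases, read 391 to 468 at ZT9 and 236 to 377 at ZT13 in control with no overlap, a difference of -0.48 ± 0.14 (adjusted p = 0.204).

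Nr4a1, an orphan nuclear receptor induced by calcium and cyclic AMP, had a positive difference at this step in diabetic retinas and a negative one in control, and neither was called. Its diabetic libraries read 389, 410, 417, 438 and 552 at ZT9 and 696, 744, 815 and 944 at ZT13, without overlap, a difference of 0.86 ± 0.28 (edgeR adjusted p = 0.277). In control retinas it read 709 to 905 at ZT9 and 298 to 887 at ZT13, a difference of -0.44 ± 0.26. The steps differed by 1.30 ± 0.38 between genotypes (adjusted p = 1.0), and no member passed this test, where 0.0% of all genes did (581 genes and 2 members at an unadjusted p under 0.05, and 0 members with DESeq2). The summed RPE markers had medians of 2623 at ZT9 and 2720 at ZT13 in control and 1775 and 3008 in diabetic retinas, and their part in the diabetic step was not tested.

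Between midday and midnight, ZT17 minus ZT5, 4 members rose and 1 fell in control retinas, where 7.42% of all genes were called higher and 7.66% lower. Egr1, a zinc-finger transcription factor, read a lowest of 209, a median of 1174 and a highest of 1291 at ZT5 and 2095, 2593, 2917, 2950 and 4007 at ZT17. Every midnight library lay above every midday one, a rise of 1.62 ± 0.55 (edgeR adjusted p = 0.0378). Fos, the AP-1 subunit most often used as a mark of activity, read a lowest of 102, a median of 453 and a highest of 516 at ZT5 and 686, 754, 755, 816 and 1074 at ZT17, again without overlap. It rose by 1.09 ± 0.34 (adjusted p = 0.0251). Ier2, a small nuclear protein of the early response, had means of 218 ± 37.9 (n = 6) and 376 ± 78.0 (n = 5) and rose by 0.78 ± 0.18 (adjusted p = 0.00187). Nr4a1 had means of 517 ± 193 (n = 6) and 1220 ± 444 (n = 5) and rose by 1.24 ± 0.25 (adjusted p = 0.000439), with an overlap of the groups. Npas4 fell by 0.80 ± 0.23 (adjusted p = 0.0120). The calls of Egr1 and Fos each hung on single libraries: without control ZT5 replicate 1, ZT5 replicate 2 or ZT17 replicate 3, both lost the threshold and 3 members remained called, with adjusted p up to 0.111 for Egr1 and 0.0921 for Fos. Egr1 also lost it without ZT17 replicate 1. With any single library left out, the rise lay from 1.41 to 1.73 for Egr1 and from 0.89 to 1.19 for Fos.

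In diabetic retinas the same comparison gave 2 members higher and 1 lower, where 3.63% of all genes were called higher and 3.73% lower. Ier2 differed by 0.74 ± 0.20 (edgeR adjusted p = 0.0110), Nr4a1 by 1.12 ± 0.28 (adjusted p = 0.00600) and Npas4 by -0.76 ± 0.25 (adjusted p = 0.0455). Without diabetic ZT17 replicate 3 no member was called, with Nr4a1 at 0.75 (adjusted p = 0.131), Ier2 at 0.30 (0.433) and Npas4 at -0.82 (0.0732). Npas4 also lost its call, with adjusted p up to 0.149, without any 1 of diabetic ZT5 replicates 1, 2, 3 and 5, ZT17 replicates 4 and 5, ZT1 replicate 3 and control ZT1 replicate 1. Egr1 stood at 1.79 with that library (adjusted p = 0.0644) and at -0.96 without it (adjusted p = 0.420), a change of direction. RPE markers were called higher at midnight for 5 of 8 in each genotype, and their part in the midnight values was not tested.

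Over all times, Egr1 and Fos were lower in diabetic than in control retinas. These were 2 of the 9 genes tested, where 1.41% of all genes were called lower, and no member was called higher. Egr1 ran from 209 through a median of 1174 to 4911 normalized counts in the 30 control libraries and from 148 through 406 to 6340 in the 28 diabetic ones. The ranges overlapped throughout, while the diabetic median lay below all but 2 of the control libraries. The difference was -1.06 ± 0.29 on the log2 scale (edgeR adjusted p = 0.0310), a fall by 51.9%. Fos ran from 102 through 495 to 1074 in control and from 157 through 298 to 1326 in diabetic libraries. It fell by 0.72 ± 0.17 (adjusted p = 0.00866), or by 39.2%. The summed RPE markers had a median of 2354 in control and 1603 in diabetic libraries, with 0 of the 8 markers called and 1 lower at an unadjusted p under 0.05, and their part in these differences was not tested.

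The other members did not pass over all times. Nr4a1 ran from 189 through 794 to 1849 in control and from 231 through 627 to 1583 in diabetic libraries, a difference of -0.32 ± 0.15 (edgeR adjusted p = 0.262). Npas4 differed by -0.21 ± 0.16 (adjusted p = 0.601), Ier2 by -0.11 ± 0.10 (0.655) and Junb, an AP-1 subunit that partners Fos, by -0.09 ± 0.10 (0.768). Fosb, a relative of Fos in AP-1, differed by 0.08 ± 0.09 (0.761), Dusp1 by 0.06 ± 0.06 (0.709) and Arc, which traffics synaptic receptors, by 0.04 ± 0.13 (0.939). The median over the 9 was -0.11, against 0.00 over all genes.

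**Figure D2:**
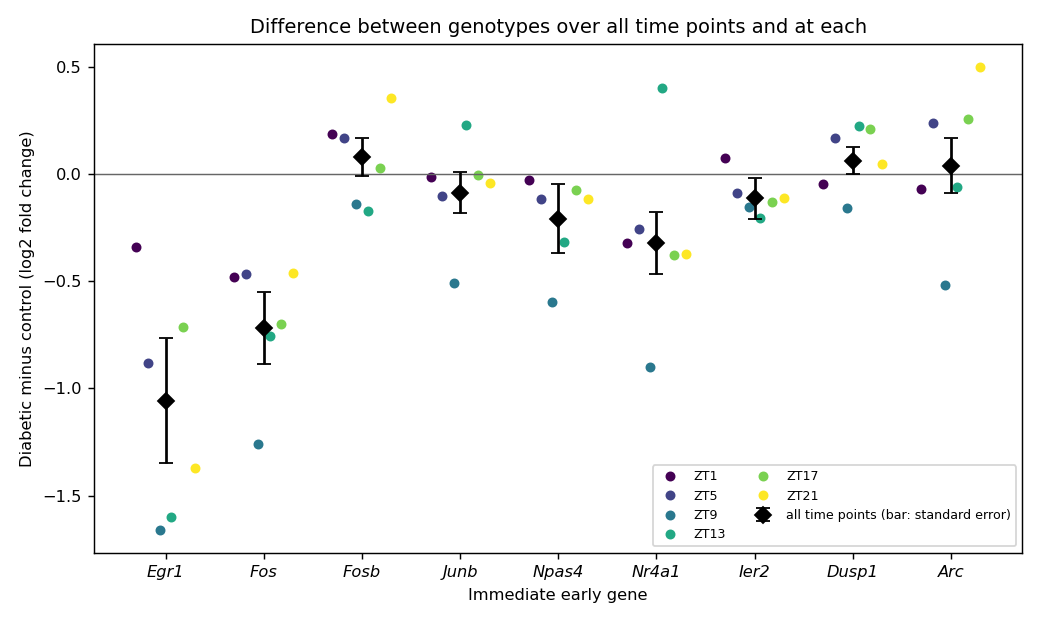
Diabetic minus control log2 fold change (y axis) of the 9 tested genes (x axis); black diamonds are the fit over all time points with its standard error and coloured dots are the 6 Zeitgeber times. Egr1, Fos and Npas4 lie below 0 at every time, while Fosb, Dusp1 and Arc straddle it.

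The overall calls depended in part on single libraries and times. With time point as an additive factor, Egr1 was at -1.07 (edgeR adjusted p = 0.00470) and Fos at -0.69 (0.00304). Without control ZT13 replicate 5, at 4911 the highest control library for Egr1, its difference was -0.94 with an adjusted p of 0.0558, and 1 member was called. Without diabetic ZT17 replicate 3 the differences were larger, -1.54 for Egr1 (edgeR adjusted p = 2.89e-05) and -0.89 for Fos (adjusted p = 8.46e-05). Leaving out all libraries of 1 time point ended the call of Egr1 for ZT1, ZT5, ZT9, ZT13 and ZT21, and that of Fos for ZT9 only, where Egr1 was at -0.96 (adjusted p = 0.144) and Fos at -0.61 (adjusted p = 0.0897). Without the 3 lens-rich control libraries both calls stood, at -1.06 (adjusted p = 0.0430) and -0.73 (0.0129).

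At single times, no member passed with edgeR. The share of all genes called was 0.0105% at ZT1, 0.0209% at ZT5 and 0.00523% at ZT9, and by night it was 0.0%, 0.167% and 0.0% at ZT13, ZT17 and ZT21. DESeq2 called 0 members at each time. At an unadjusted p under 0.05 there were 5 members at ZT9, 1 at ZT13 and 1 at ZT21, where 4.49%, 4.46% and 4.67% of all genes were, and 0 at the other 3 times. Egr1, Fos and Npas4 had a negative difference at all 6 times, with no share of all genes to set beside this. The 6 differences share no library, but they come from 1 fit. Medians went the other way for Egr1 at ZT13 (599 in control and 656 in diabetic libraries) and for Npas4 at ZT17 (36.4 and 41.1). The Npas4 difference was only -0.03 ± 0.22 at ZT1 and -0.08 ± 0.25 at ZT17.

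At ZT9 no member was called. All 9 had a negative difference, with a median of -0.52 against 0.00 over all genes, and 5 were lower at an unadjusted p under 0.05, where 2.3% of all genes were. For Fos the control libraries read 476, 515, 601, 703 and 773 and the diabetic ones 220, 220, 233, 271 and 328, a difference of -1.26 ± 0.37 (edgeR adjusted p = 0.462). For Egr1 they read 813, 985, 1681, 1806 and 1928 against 299, 327, 335, 644 and 657, a difference of -1.66 ± 0.60 (adjusted p = 0.785). For Nr4a1 they read 709, 787, 822, 870 and 905 against 389, 410, 417, 438 and 552, a difference of -0.90 ± 0.27 (adjusted p = 0.450). In each of these genes every diabetic library lay below every control one. The same held by a hair for Junb, whose lowest control and highest diabetic libraries both read 270.8, with means of 313 ± 39.3 (n = 5) and 221 ± 31.6 (n = 5) and a difference of -0.51 ± 0.20 (adjusted p = 0.850). So 4 of the 9 genes did not overlap in this direction, where 0.434% of all genes did not. This count was 0 at ZT1, ZT5, ZT13 and ZT17 and 1 at ZT21, and ZT9 was singled out after its values were seen. The 4 genes also correlated within groups, with a Pearson r of 0.63 to 0.93 between pairs, so they are not separate evidence. Npas4, at 82.9 ± 29.6 and 55.1 ± 17.1, overlapped, with a difference of -0.60 ± 0.23 (adjusted p = 0.835).

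Beside these values, the summed RPE markers at ZT9 were also lower in diabetic libraries, 1227 to 2560 with a median of 1775, against 2375 to 3064 with a median of 2623 in control. Of the 8 markers, 4 were lower at an unadjusted p under 0.05 and 0 were called. At ZT5, 7 of the 8 were lower at an unadjusted p under 0.05 and 0 members were. Lens markers were low in both groups at ZT9, at most 105 in control and 910 in diabetic libraries. The part of these cells in the ZT9 differences was not tested.

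Egr2, a zinc-finger relative of Egr1, was near the detection limit, with 0 to 8 reads per library, a median of 1 and no read in 27 of 58 libraries. At ZT9 the control libraries had 6, 4, 5, 5 and 4 reads and the diabetic ones 1, 0, 1, 0 and 1, without overlap. With no expression filter, edgeR gave an adjusted p of 0.559 for this difference. At ZT1 the reads were 1, 5, 8, 3 and 3 in control and 3, 1, 3, 4 and 5 in diabetic libraries, while all 5 diabetic libraries had 0 at ZT21 and 4 of 5 control libraries had 0 at ZT13. In that unfiltered fit Egr2 varied over the day in both genotypes (adjusted p = 0.00310 in control and 0.00606 in diabetic), and it was higher at ZT1 than at ZT21 in diabetic retinas (adjusted p = 0.00689).

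At ZT17, 3 of the 4 diabetic libraries were low and 1 was very high. Egr1 read 201, 243, 346 and 6340 in diabetic libraries against 2095, 2593, 2917, 2950 and 4007 in control, so that 3 diabetic libraries lay far below the control range and replicate 3 above it. Fos read 162, 163, 375 and 1326 against 686, 754, 755, 816 and 1074, with the same library on top. With all libraries the differences were -0.71 ± 0.60 for Egr1 (edgeR adjusted p = 0.826) and -0.70 ± 0.38 for Fos (adjusted p = 0.624). Without replicate 3 they were -3.47 ± 0.60 (adjusted p = 0.00263) and -1.81 ± 0.36 (adjusted p = 0.0122), so 2 members were then called in place of 0. The share of all genes called at ZT17 in that fit is not given here. Replicate 3 was chosen for its values, and the fit without it is no independent evidence. It also had the highest Junb (566 against 236 to 264), Nr4a1 (1583 against 651 to 789) and Ier2 (617 against 239 to 283) of its group, but not the highest Npas4, at 44.7 within 32.5 to 45.1. Its 19965687 counted reads lay among the 18193309 to 20301393 of its group, and its summed RPE markers were 1251 against 1431 to 2823 in the other 3. Its summed rod markers were 642540 against 534794 to 605676 in the other 3. The part of these cells in its values was not tested.

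At ZT13 the control group was split in a like manner, with Egr1 at 390, 448, 599, 3145 and 4911 and Fos at 279, 286, 380, 896 and 989. The 2 high libraries, replicates 3 and 5, were the same for both genes. Diabetic libraries at that time read 359, 568, 744 and 837 for Egr1, and its difference was -1.60 ± 0.64 (edgeR adjusted p = 0.956). At ZT21 every diabetic library, at 148 to 390, lay below every control library, at 456 to 882, for Egr1, which was 1 of 9 members without overlap in this direction, where 1.06% of all genes were. Its difference there was -1.37 ± 0.64 (adjusted p = 1.0). At ZT1 and ZT5 both groups overlapped for Egr1, with differences of -0.34 ± 0.58 and -0.88 ± 0.58 (adjusted p = 0.999 and 0.907).

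Junb, Fosb and Arc did not pass the edgeR test over the day, and for Junb and Arc this depended on the fit. Junb had control means from 209 ± 79.0 (n = 5) at ZT13 to 328 ± 90.5 (n = 5) at ZT17, Fosb from 45.5 ± 6.49 (n = 4) at ZT21 to 63.6 ± 12.4 (n = 5) at ZT17, and Arc from 15.9 ± 3.58 (n = 4) at ZT21 to 29.6 ± 8.66 (n = 5) at ZT1. None of these passed the test among the 6 times in control, with edgeR adjusted p of 0.0594, 0.309 and 0.0793, or in diabetic retinas, with 0.0844, 0.208 and 0.594. With DESeq2 the adjusted p was 0.0243 for Junb and 0.0436 for Arc in control and 0.0498 for Junb in diabetic retinas. In edgeR, Junb in control had 0.0407 with no filter, 0.0299 with the replicate block, 0.0171 without diabetic ZT17 replicate 3 and 0.0138 without control ZT13 replicate 5, and in diabetic retinas 0.0437 without diabetic ZT17 replicate 4.

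Whether the daily profile differed between genotypes was tested directly with an interaction term. No member passed with edgeR, where 0.0% of all genes did, and at an unadjusted p under 0.05 there were 0 members among 514 genes. Without diabetic ZT17 replicate 3 there were 3 members at that threshold, Egr1, Nr4a1 and Fos, each with an adjusted p of 1.0. The share of all genes at that threshold in the fit without this library is not given, so the 3 members are not set against it. With all libraries, DESeq2 called 0 members and 2 genes, and the smallest edgeR p was that of Nr4a1, at 0.0533. So the calls of a member in 1 genotype and not in the other were not shown to differ.

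**Figure D3:**
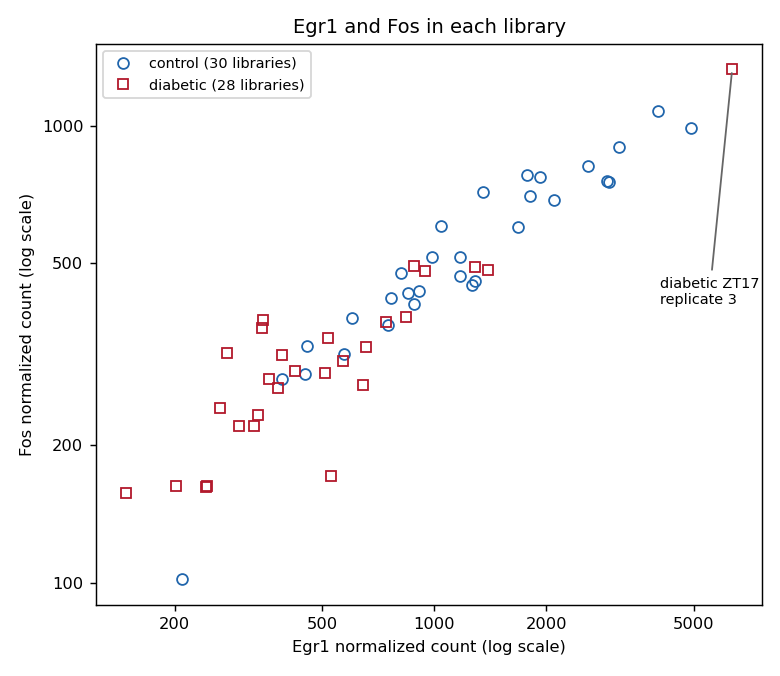
Fos against Egr1 in each of the 58 libraries, both as normalized counts on log axes; blue circles are control and red squares diabetic. Libraries high for one gene were high for the other in both genotypes, and diabetic ZT17 replicate 3 lies at the upper end.

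With all libraries, Egr1 and Fos varied between libraries of 1 group more than nearly any gene. The biological coefficient of variation, the square root of edgeR's dispersion, was 61.2% for Egr1, higher than in 99.8% of the 19120 genes, and 39.2% for Fos, higher than in 98.6%. Diabetic ZT17 replicate 3 adds to both. Without it the SE of the genotype difference at ZT1 went from 0.58 to 0.44 for Egr1 and from 0.36 to 0.29 for Fos. The coefficients without it are not given here. The coefficient was 28.4% for Nr4a1, 22.7% for Arc, 21.9% for Npas4, 20.9% for Junb, 19.8% for Ier2, 17.7% for Fosb and 13.9% for Dusp1, against a median of 11.6% over all genes. It depends on expression, and edgeR's trend at the level of each gene was 21.6% for Arc, 18.0% for Fosb and 17.7% for Npas4. For the other members the trend lay from 10.4% to 11.6%. Arc and Fosb were thus near the trend.

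**Figure D4:**
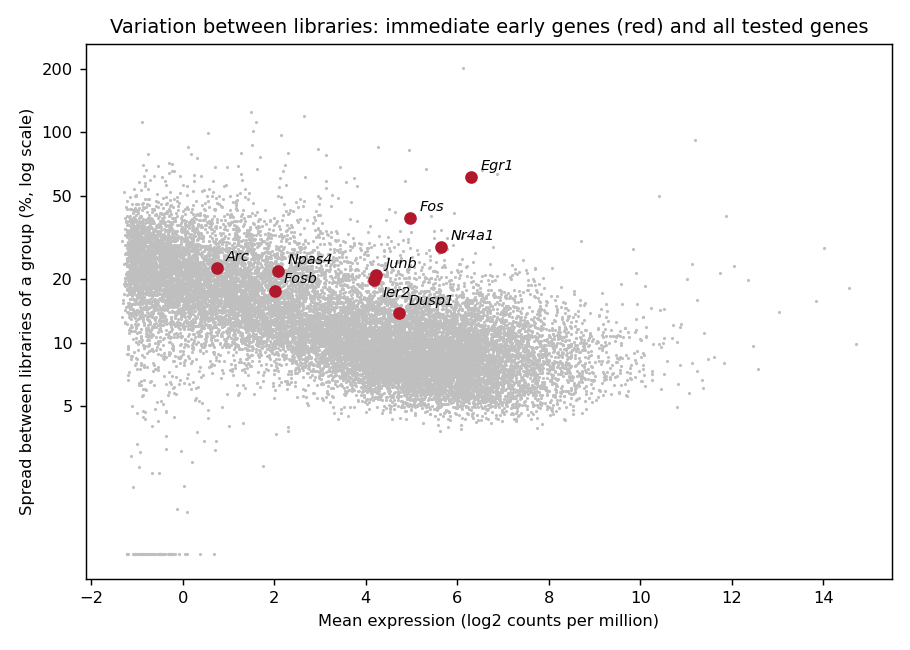
Biological coefficient of variation in percent (log axis) against mean expression in log2 CPM for all 19120 genes (grey) and the 9 immediate early genes (red). Egr1 at 61.2% and Fos at 39.2% lie far above genes of like expression, while Fosb and Dusp1 lie near the cloud.

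Fos, Egr1, Junb, Nr4a1, Ier2 and Dusp1 moved together from library to library, while Arc and Fosb did so less. After the group means were removed, the 36 pairs among the 9 genes had a median Pearson r of 0.44 over the 58 libraries, from -0.05 to 0.93, and 1 pair was negative. Fos and Egr1 had the highest, at 0.93, followed by Junb with Nr4a1 at 0.80 and Junb with Ier2 at 0.77. Arc had 0.08 with Fos, 0.11 with Egr1 and 0.42 with Junb, and Fosb had -0.05 with Npas4 and 0.53 with Junb. No value for pairs of other genes is given, so the median is not shown to be unusual. The points share library and size factor, so these are descriptions. The mean standardized level of the 9 genes was highest in diabetic ZT17 replicate 3 (1.99 SD units) and control ZT17 replicate 3 (1.45) and lowest in control ZT5 replicate 1 (-1.64) and control ZT13 replicate 1 (-1.53). Over the libraries this level had an r of 0.21 with the total count, 0.44 with the summed rod markers, 0.18 with the lens and -0.11 with the RPE markers.

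The 5 other genes whose log2 level over the 58 libraries was most like that mean were Dusp5, a phosphatase of ERK (r = 0.79), Pard6b, a cell polarity protein (0.74), 5033430I15Rik (0.71), Sik1, a kinase of the cyclic AMP response (0.70), and Glmp, a lysosomal membrane protein (0.70). Dusp5 ranged from 229 through a median of 349 to 483 normalized counts.

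Among 18 other early transcription factors, 16 passed the filter, and 6 of these were called higher across lights on in each genotype, with 0 lower, where 0.262% of all genes were called higher in control and 1.39% in diabetic retinas. The same 6 genes passed in both: Nr4a3, Fosl2, Egr3, Egr4, Klf4 and Csrnp1. Nr4a3, a relative of Nr4a1, had means of 30.5 ± 13.1 (n = 4) at ZT21 and 160 ± 30.9 (n = 5) at ZT1 in control and 24.7 ± 6.36 (n = 5) and 155 ± 33.0 (n = 5) in diabetic retinas. It rose by 2.33 ± 0.37 (edgeR adjusted p = 0.000153) and 2.67 ± 0.35 (adjusted p = 3.85e-06). Egr3, a relative of Egr1, rose by 1.67 ± 0.35 (adjusted p = 0.00536) and 2.15 ± 0.31 (adjusted p = 1.69e-05). Fosl2, a Fos relative, rose by 1.29 ± 0.20 (adjusted p = 0.000140) and 1.07 ± 0.19 (adjusted p = 0.000300). The median over the 16 was 0.55 in control and 0.41 in diabetic retinas, against 0.00 and 0.01 over all genes.

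Across lights off, 4 of the 16 fell in control retinas, where 0.0628% of all genes did. In diabetic retinas 0 passed and 2 of the 16 were at an unadjusted p under 0.05, where 7.85% of all genes were. In control, Nr4a3 fell by 2.24 ± 0.35 (edgeR adjusted p = 0.000248), Fosl2 by 1.19 ± 0.20 (adjusted p = 0.000615) and Egr3 by 1.54 ± 0.34 (adjusted p = 0.0352). The genotypes already stood apart in means at ZT9, where Nr4a3 had 150 ± 64.4 in control and 66.7 ± 40.8 in diabetic retinas (n = 5 each), a difference of -1.23 ± 0.33 (edgeR adjusted p = 0.293) that was not called. This difference was chosen after its values were seen. Of the 16, 14 had a negative difference at ZT9, with a median of -0.29 against 0.00 over all genes, and 6 were lower at an unadjusted p under 0.05, where 2.3% of all genes were. The interaction test called none of them.

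**Figure D5:**
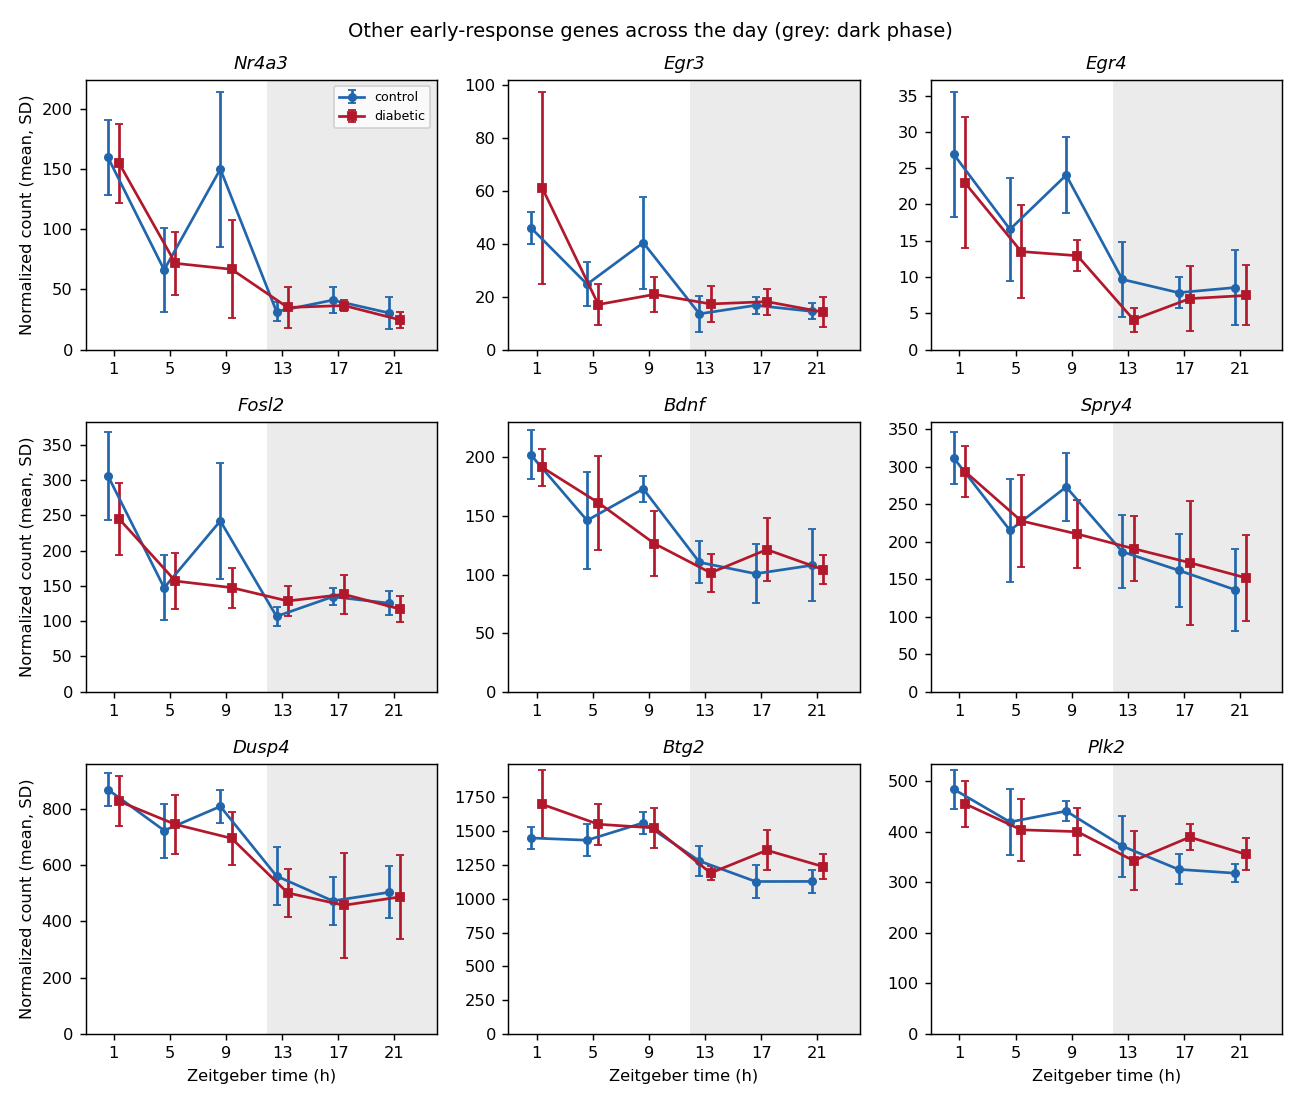
Mean normalized count with SD (y axis) against Zeitgeber time for 9 other early-response genes in control (blue) and diabetic (red) retinas, with the dark phase in grey. Nr4a3, Egr3, Egr4 and Fosl2 were high at ZT1 in both genotypes and had a second high mean at ZT9 in control, where Nr4a3 stood at 150 against 66.7 in diabetic retinas.

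Over all times, 2 of the 16 factors were higher in diabetic retinas, where 1.58% of all genes were, Csrnp1, a nuclear protein induced by axin, by 0.35 ± 0.09 (edgeR adjusted p = 0.0210) and Klf10, a Krüppel-like factor, by 0.19 ± 0.05 (adjusted p = 0.0298). Their direction is opposite to that of Egr1 and Fos. Csrnp1 was also higher at ZT17, by 0.77 ± 0.18 (adjusted p = 0.0487), the 1 early factor called at a single time. Between ZT5 and ZT17, Jun, the AP-1 partner of Fos, rose by 0.42 ± 0.12 (adjusted p = 0.0157) and Egr4 fell by 1.04 ± 0.37 (adjusted p = 0.0481) in control retinas, where 7.42% of all genes rose and 7.66% fell. In diabetic retinas 0 of 16 passed and 3 were at an unadjusted p under 0.05, where 21.3% of all genes were.

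Of 26 early genes that encode other proteins, all tested, 4 rose across lights on in each genotype and 0 fell, where 0.262% of all genes rose in control and 1.39% in diabetic retinas. In control, Plk2, a polo-like kinase of synapses, rose by 0.61 ± 0.11 (edgeR adjusted p = 0.000948), Bdnf, a neurotrophin, by 0.92 ± 0.19 (0.00380) and Btg2, an antiproliferative protein, by 0.36 ± 0.09 (0.0273). In diabetic retinas, Btg2 rose by 0.47 ± 0.08 (0.000254), Bdnf by 0.89 ± 0.17 (0.00123) and Sik1 by 0.77 ± 0.22 (0.0348). Between ZT5 and ZT17, 3 of the 26 rose and 3 fell in control, where 7.42% and 7.66% of all genes did, led by Trib1, a pseudokinase, at 0.50 ± 0.08 (6.66e-06) and Ier3 at 0.57 ± 0.10 (0.000102), with Btg2 falling by 0.35 ± 0.08 (0.00141). In diabetic retinas 3 rose, where 3.63% of all genes did, Ier3 by 0.51 ± 0.11 (0.00171), Trib1 by 0.38 ± 0.08 (0.00186) and Ppp1r15a, a stress-response phosphatase subunit, by 0.47 ± 0.14 (0.0279). Over all times the 1 gene of the 26 to differ between genotypes was Btg1, higher in diabetic retinas by 0.12 ± 0.03 (0.0160). Of the 19120 genes tested, 303 were called higher in that comparison.

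Of 11 genes that limit ERK signalling 10 were tested, and 5 of these passed the edgeR test among the 6 times in control and 2 in diabetic retinas, where 9.06% and 10.2% of all genes did. Across lights on, Dusp4, a nuclear ERK phosphatase, rose by 0.79 ± 0.18 (edgeR adjusted p = 0.0150) and Spry4, a Sprouty inhibitor, by 1.22 ± 0.28 (0.0159) in control, and by 0.78 ± 0.17 (0.00359) and 0.97 ± 0.26 (0.0229) in diabetic retinas, where Spry2 fell by 0.29 ± 0.07 (0.0182). Of all genes, 0.262% were called higher across lights on in control and 1.39% in diabetic retinas, where 267 of the 19120 genes were called lower. Across lights off, Dusp6 fell by 0.64 ± 0.13 (0.0214) in control, where 12 of the 19120 genes did. Between ZT5 and ZT17, 4 of the 10 passed in control, where 7.42% of all genes were called higher and 7.66% lower. In diabetic retinas 2 passed, where 3.63% and 3.73% were. Spry2 rose by 0.57 ± 0.07 (5.92e-08) and 0.48 ± 0.08 (2.14e-05) in control and diabetic retinas in turn, and Dusp4 fell by 0.62 ± 0.16 (0.00706) and 0.71 ± 0.18 (0.00721). Dusp5 also rose in control, by 0.39 ± 0.12 (0.0223). None of the 10 was called between genotypes over all times, and 1 was at an unadjusted p under 0.05, where 15.5% of all genes were.

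The kinases and factors upstream of the immediate early promoters were all 25 tested, and 3 rose between ZT5 and ZT17 in control retinas, where 7.42% of all genes did: Mef2d, a MADS-box factor, by 0.57 ± 0.12 (edgeR adjusted p = 0.000954), Mapk3, which encodes ERK1, by 0.40 ± 0.11 (0.0114) and Mkl1, an SRF coactivator, by 0.36 ± 0.13 (0.0472). In diabetic retinas 1 fell, Mef2c, by 0.23 ± 0.08 (0.0489), where 3.73% of all genes did. Between genotypes 0 of 25 were called over all times, with 1 at an unadjusted p under 0.05, where 15.5% of all genes were.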

How the data were processed

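The authors aligned the reads with STAR 2.7.4a to GRCm38.p5 and counted them per gene of Gencode M15 with HTSeq 0.11.1, per the study's methods and the submitters' processing notes, after quality checks with FastQC. The deposited table holds raw read counts, neither normalized nor filtered, for 58 libraries, and every column was assigned by its title. DESeq2 1.26.0 is named in those notes, but the deposited values are not its output.

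Genes with a median above 4 normalized counts (DESeq2 1.42.0 size factors) over all libraries were tested, 19120 in all. edgeR 4.0.16 in R 4.3.3, with TMM factors, fitted 12 groups of genotype and time point, or 1 group per genotype for the difference over all times. Benjamini-Hochberg adjustment ran over all genes, with a threshold of 0.05. Rhythm used 30 waveforms and 200000 shuffled series in Python 3.11.15. A cosine was fitted by least squares for peak times. With 7773117 to 22147398 reads per library, genes near the filter, such as Arc and Egr2, have a large counting error.

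The genes named are the 10 members, at most 3 genes of each other list and comparison with the smallest p among those called, and the 5 genes most like the members. Of the other genes called in a list, Egr4, Klf4 and Csrnp1 across lights on were named after their values were seen. The members and lists were chosen with earlier results of these data known. Each of the 113 pairs of replicates differed by more than counting noise. The statistics were tested on simulated data. Alternatives were relative log expression factors, no filter, DESeq2, a time factor, a replicate block and each library left out, and for rhythm another adjustment, fold, normalization, filter and a cosine model. Promoter windows came from RefSeq for GRCm38.p6. Proteins and the windows of Egr1, Arc and Ier2 were not used here.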

Additional observations from a re-analysis of the deposited data

Results flagged for a closer look

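In each group of 4 to 6 libraries, the gap between the most extreme library and its neighbour was compared with the range of the group by Dixon's 95% limit, for the 9 tested genes. Chance passes this limit in about 1 of 20 groups, and 8 of 108 groups (7.41%) passed it, 6 by a high and 2 by a low library. One library, diabetic ZT17 replicate 3, accounted for 4 of the 8: its Egr1 was 6340 against 201 to 346 in the other 3 libraries, its Junb 566 against 236 to 264, its Nr4a1 1583 against 651 to 789 and its Ier2 617 against 239 to 283. For Ier2, control ZT17 replicate 3 also stood out, at 514 against 331 to 350. Npas4 was 121 in control ZT1 replicate 4 against 88.9 to 93.5. The low values were Nr4a1 in control ZT1 replicate 6, 794 against 966 to 1031, and Fosb in control ZT13 replicate 2, 36.8 against 49.4 to 52.2. Control ZT1 replicate 6 was also 1 of the 3 lens-rich libraries, with summed lens markers of 38708. The part of lens tissue in its Nr4a1 value was not tested.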

How the results depend on the processing

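Over 20 comparisons, the number of members called stayed within 1.5 times the reported number in 95 of 108 alternatives, and 200 of 215 values of single members kept direction and side of the threshold. Arc over all times, which was never called, changed sign near 0, to -0.0026 without ZT5, -0.0049 without ZT17, -0.025 without ZT21 and -0.0020 without diabetic ZT1 replicate 4, in a range of -0.0020 to 0.080 over single libraries left out. For the difference over all times, 1 member was called with no filter, where 387 of 37233 genes were and Egr1 was at -1.05 (edgeR adjusted p = 0.0509). Alternatives chosen after seeing the data left out time points: 1 member was called without ZT1, ZT5, ZT13 or ZT21 and 0 without ZT9. Of all genes, 323, 267, 427 and 226 were called in the first 4 of these fits in turn, and 357 without ZT9. Egr1 was then at -1.20, -1.10, -0.95 and -0.99 without ZT1, ZT5, ZT13 and ZT21 (adjusted p = 0.0535, 0.0819, 0.0974 and 0.11) and at -0.96 without ZT9 (0.144), where Fos was at -0.61 (0.0897); fewer libraries enter these fits. Among the 6 times in diabetic retinas, 5 members were called with no filter, which admits Egr2, and 5 with DESeq2. Of all genes, 1414 of 37233 and 2409 of 18372 were called in these fits. Across lights on in diabetic retinas 2 were called with no filter, where 312 of 37233 genes were. Across lights off in control 1 was called with DESeq2, where 45 of 16889 genes were. For rhythm, 1 was called in control with Benjamini-Hochberg adjustment (Ier2 at 0.0540), where 1573 of 19120 genes were. The cosine model called 4 in control and 4 in diabetic retinas, where it called 4784 and 5032 of the 19120 genes. Npas4 between ZT5 and ZT17 in diabetic retinas lost its call with no filter (-0.75, adjusted p = 0.0703). Without the lens-rich libraries, also added later, it was at -0.76 (0.0516) and Dusp1 over the 6 times in control at an adjusted p of 0.0558. The causes of the other changes were not tested.

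Leaving out 1 library at a time gave 1 to 2 members over all times, 0 to 2 at ZT17 and 0 to 0 at the other times. It gave 3 to 7 among the 6 times in control and 2 to 5 in diabetic retinas, 1 to 1 and 1 to 2 across lights on, 0 to 1 and 0 to 0 across lights off, 3 to 5 and 0 to 4 between ZT5 and ZT17, 2 to 4 and 2 to 4 rhythmic, and 0 to 0 for the tests between genotypes.

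Replicate numbers are shared between groups in the labels, but the labels name no shared batch. Over 26 pairs of control and diabetic libraries of equal number and time, deviations correlated with a median r of 0.11 (from -0.20 to 0.55; -0.03 for unequal numbers), and 14 of 26 control libraries correlated best with their own number, a hint of pairing from the data. Since the labels name no shared batch and 15 of 26 pairs, not all, were over 0.1, the fit without the block was kept and the block is given beside it. With the replicate block, 2 members were called over all times, where Egr1 was at -1.25 (adjusted p = 0.00674), 5 among the 6 times in control and 2 in diabetic retinas, where Egr1 had an adjusted p of 0.112. Depth limits Egr2 and Arc most.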
